A study of Mus musculus with 5 samples.

Results

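The proteasome subunit genes of the mouse were described here across 5 single-cell RNA libraries of REX-1 RFP cells. Members were chosen by symbol: Psm, 1 letter from a to g and a number, without pseudogene names, which found 50 of the 32285 genes listed. They comprised 7 alpha subunits of the core (Psma1 to Psma7), 7 standard beta subunits (Psmb1 to Psmb7), 5 immune or tissue-specific core subunits (Psma8, Psmb8, Psmb9, Psmb10 and Psmb11), 6 ATPases (Psmc1 to Psmc6), 14 non-ATPase subunits (Psmd1 to Psmd14), 5 activator genes (Psme1, Psme2, Psme2b, Psme3 and Psme4), the inhibitor Psmf1, 4 assembly chaperones (Psmg1 to Psmg4) and Psmc3ip. The last encodes a meiotic recombination factor named for binding Psmc3. It matched the pattern but is no proteasome subunit. It is counted among the members in the sums, medians and counts below, and its own values are given apart.

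REX-1 RFP is a mouse embryonic stem cell line with a red fluorescent protein under the Rex1 promoter, and all libraries came from this 1 line after a first culture with leukaemia inhibitory factor (LIF). Conditions then lasted 72 h. The library labelled NS had LIF and no sorbitol, and the library labelled ND had neither. Sorbitol, a polyol that makes a culture medium hyperosmotic, was given with LIF at 200, 250 or 300 mM. The labels do not spell out NS or ND. Each condition was 1 library, so there is no replicate error and no test: every interval below is a 95% interval that covers counting error only, and a difference between libraries cannot be told apart from one between cultures or preparations.

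The proteasome is the protease that degrades most short-lived and misfolded proteins of the cell, usually after these are tagged with ubiquitin. Its core is a barrel of stacked alpha and beta rings, whose catalytic sites lie inside on Psmb5, Psmb6 and Psmb7. A regulatory particle of ATPases and non-ATPase subunits binds the tagged protein, removes the tag and threads the chain into the barrel, whereas activator proteins open the barrel without ATP. Interferon can replace the 3 catalytic subunits by Psmb8, Psmb9 and Psmb10, which favours peptides for antigen presentation, and embryonic stem cells are known for high proteasome activity.

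Sequence from promoter windows is shown for the members that the results below turn on. They are Psmb5, whose level differed between neighbouring sorbitol doses, and Psme4 and Psmd5, which were higher with sorbitol. The others are Psme1 and Psmb8, whose levels were above NS in ND and below NS in the sorbitol libraries. The sequences come from RefSeq, build GRCm38.p6, and are written 5′ to 3′ on the strand of the gene. The first is upstream of Psmb5, chr14:54618023-54618172 (minus strand), with a TGANNNNGC match in capitals, a pattern that contains the antioxidant response element core. The next is upstream of Psme4, chr11:30771576-30771725 (plus strand). For Psmd5 the stretch is upstream of a RefSeq start, chr2:34870963-34871107 (minus strand). It lies inside the gene bounds of Psmd5 given further below, outside annotated GENCODE exons. Psme1 is shown by 30 bases just past its RefSeq start, chr14:55578499-55578528 (plus strand), with an interferon-response-like match in capitals. Psmb8 is shown by chr17:34198088-34198117 (plus strand), with a TTCNNNGAA match, the pattern that STAT factors bind, in capitals. All 30 bases shown for Psme1, and all 30 for Psmb8, lie in annotated GENCODE exons, inside the gene bounds given further below.
Psmb5: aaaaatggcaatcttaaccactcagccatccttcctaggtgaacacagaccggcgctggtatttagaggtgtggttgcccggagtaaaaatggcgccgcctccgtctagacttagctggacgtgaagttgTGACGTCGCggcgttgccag
Psme4: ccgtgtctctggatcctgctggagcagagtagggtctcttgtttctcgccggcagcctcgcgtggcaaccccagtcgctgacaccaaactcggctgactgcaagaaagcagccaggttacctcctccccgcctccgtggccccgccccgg
Psmd5: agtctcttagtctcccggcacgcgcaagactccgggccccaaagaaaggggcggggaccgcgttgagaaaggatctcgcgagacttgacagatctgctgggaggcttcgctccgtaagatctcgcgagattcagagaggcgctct
Psme1: gtgctttcgcTTTCCCTTCCcgctgcccac
Psmb8: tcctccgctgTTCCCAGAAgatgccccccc

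A promoter window of 300 bases (250 before and 50 after the start) was matched for 42 of the 50 members. Both strands were searched. TGANNNNGC lay in the windows of 24 of the 42 members (57.1%), and in a window of 45.0% of all 27025 genes with one. Its stricter form TGACTCAGC was in 0 members and in 0.503% of genes. CCAAT was found in 15 members (35.7%) and 41.1% of genes. GGAA and GAAA with any 2 bases between them, part of interferon response elements, were found in Psmc2 and Psme1 (4.76%) and in 3.16% of genes. TTCNNNGAA was found in Psmb8, Psmd2 and Psmg1 (7.14%) and in 9.55% of genes. A match is a description of letters and not a binding site.

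Depth and composition differed between the libraries. Totals were 22158653 unique molecular identifiers (UMIs, 1 per captured RNA molecule) in NS and between 8404105 and 9766705 in the others, over 10000 barcodes each. The barcode with fewest UMIs had 1897 in NS and between 729 and 827 in the others. How the barcodes were chosen is not stated, so 10000 need not be the number of cells recovered. Between 34 and 54 barcodes were shared by any 2 libraries and 0 by all 5. All 8 embryonic stem cell markers were at 5 CPM or more in every library (CPM is a gene's UMIs as parts per 1000000 of the library total), with summed levels of 5592 to 8461 CPM. The markers of fibroblasts summed to 7.88 to 19.6 CPM with 3 or 4 of 9 at 0, and those of a cleavage-stage-like state to 4.93 to 40.4 CPM. Those of primitive endoderm summed to 16.6 CPM in NS, 11.0 in ND, and 24.0, 28.3 and 35.8 with rising sorbitol, and those of trophoblast to 140, 157, 177, 214 and 222 CPM, so both sums were above NS in the sorbitol libraries. Single markers did not all follow the sums. Of the trophoblast markers Tfap2c and Hand1 were above NS at every dose, but Gata3 and Krt18 were below it. Krt18 was at 30.7 CPM in NS and 10.3, 23.0 and 18.9 with rising sorbitol. Gata4 of the primitive endoderm list was also below NS at every dose. Mitochondrial transcripts were between 3.98% of UMIs in NS and 6.13% at 300 mM sorbitol, and ribosomal protein transcripts were between 28.4% and 21.3%. The nuclear RNA Malat1 was at 14103 CPM in NS, 12548 in ND, and 22949, 22155 and 16622 with rising sorbitol. The part of these differences in the results below was not tested. The part of these differences in the proteasome values was not tested.

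Proteasome members made up 0.739% of all UMIs with LIF alone (NS) and 0.722% without LIF (ND). With sorbitol they made up 0.599% at 200 mM, 0.671% at 250 mM and 0.619% at 300 mM. The summed level was thus 7392 CPM in NS and 7218 CPM in ND, against 5986, 6706 and 6189 CPM in the sorbitol libraries. ND was close to NS, with a log2 ratio of the sums of -0.03 (-0.05 to -0.02). The 3 sorbitol libraries were lower than NS by log2 ratios of -0.30 (-0.32 to -0.29), -0.14 (-0.15 to -0.13) and -0.26 (-0.27 to -0.24). All levels are CPM of UMI counts, which are not divided by length and are compared here only for the same gene or group between libraries.

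**Figure D1:**
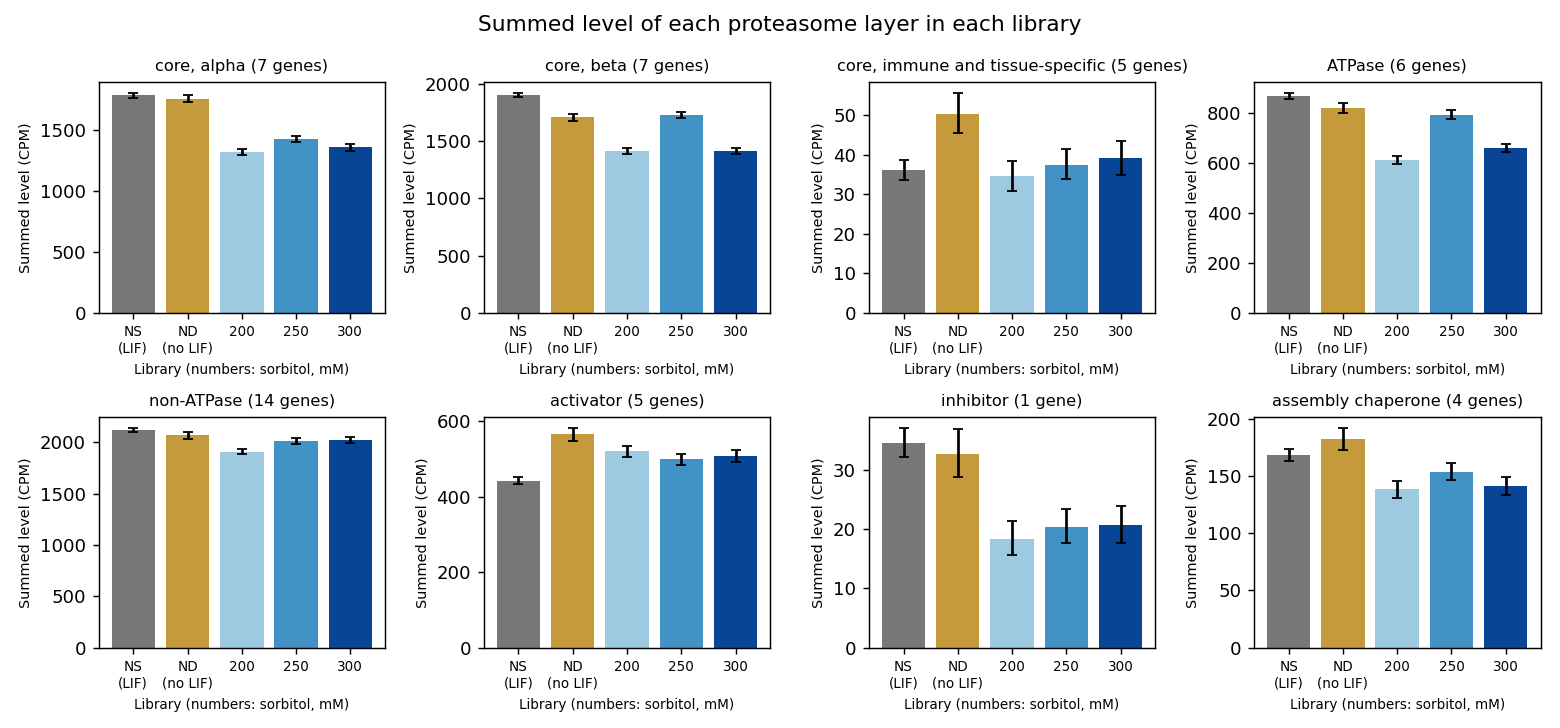
Summed level in CPM (vertical axes, from 0) of each layer of the proteasome in the 5 libraries (horizontal axes). Bars are 1 library each and error bars are 95% Poisson intervals; the alpha, beta and ATPase bars are lower with sorbitol than in NS, and the activator bars are above NS in the other 4 libraries.

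The layers differed in how far they were from NS. Alpha subunits summed to 1783 CPM in NS, 1756 in ND, and 1319, 1429 and 1356 with 200, 250 and 300 mM sorbitol. The standard beta subunits were at 1898, 1706, 1410, 1730 and 1416 CPM in the same order, and the ATPases at 868, 819, 611, 795 and 661 CPM. At 200 and 300 mM these 3 layers were lower than in NS by log2 ratios between -0.51 and -0.39. The 14 non-ATPase subunits were nearer to NS, with 2119, 2068, 1910, 2015 and 2025 CPM and log2 ratios of -0.15, -0.07 and -0.07 at the 3 doses, or -0.31, -0.28 and -0.32 relative to the bulk of genes (median-of-ratios scaling, described below). Activator genes summed to 443 CPM in NS, 566 in ND and 521, 500 and 508 with sorbitol. On that scaling the alpha, beta and ATPase ratios were -0.59, -0.59 and -0.66 at 200 mM and -0.65, -0.67 and -0.64 at 300 mM. The activator log2 ratio was 0.27 in ND and 0.07 at 200 mM but -0.03 and -0.05 at 250 and 300 mM, so its direction flipped at those doses. The assembly chaperones were at 168, 182, 138, 154 and 141 CPM.

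To count members, a gene was measured where it reached 5 CPM in either library of a comparison, and it was higher or lower where its CPM differed by at least 1.5-fold. In ND against NS 47 members were measured. Psmb8 alone was higher, beside 10.0% of all genes measured, and it passed the minimum only through ND, where it is high. No member was lower, beside 7.07% of all genes. The median log2 ratio was -0.01 over the members and 0.08 over all genes. With sorbitol 46 members were measured, and Psmb8, Psmb9, Psmb11 and Psme2b were not. At 200 mM 2 members were higher, beside 26.8% of all genes, and 10 were lower, beside 11.0%. At 250 mM 2 were higher, beside 26.5%, and 3 were lower, beside 8.69%. At 300 mM 3 were higher, beside 32.8%, and 8 were lower, beside 10.6%. Median log2 ratios of the members were -0.38, -0.19 and -0.37 at the 3 doses, whereas those of all genes were 0.20, 0.23 and 0.29. These comparisons share the NS library. Shares among genes of like transcript length are given further below.

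Most genes measured had ratios above 0 with sorbitol, so the members were also set against a scaling that centres the typical gene, the median of ratios over 9033 genes at 5 CPM or more in every library. It shifts log2 ratios by -0.08 in ND and by -0.16, -0.20 and -0.25 at 200, 250 and 300 mM. Under it 18 members were lower at 200 mM, beside 16.4% of genes, and 2 were higher, beside 19.3%. At 250 mM 9 were lower, beside 15.1%, and 0 were higher, beside 16.4%. At 300 mM 25 were lower, beside 19.0%, and 0 were higher, beside 20.2%. Without Psmc3ip the CPM counts of lower members were 9, 2 and 7 at the 3 doses. Under median-of-ratios scaling member medians were -0.54, -0.39 and -0.62. The 8 genes of the CCT chaperonin, another cytosolic multi-subunit machine, then had medians of -0.28, -0.24 and -0.35, and the 97 ribosomal protein genes measured -0.31, -0.50 and -0.64, which at 250 and 300 mM is lower than the members. Under CPM scaling the CCT medians were -0.12, -0.04 and -0.10, with 0 genes higher or lower, and the ribosomal ones -0.16, -0.30 and -0.39.

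**Figure D2:**
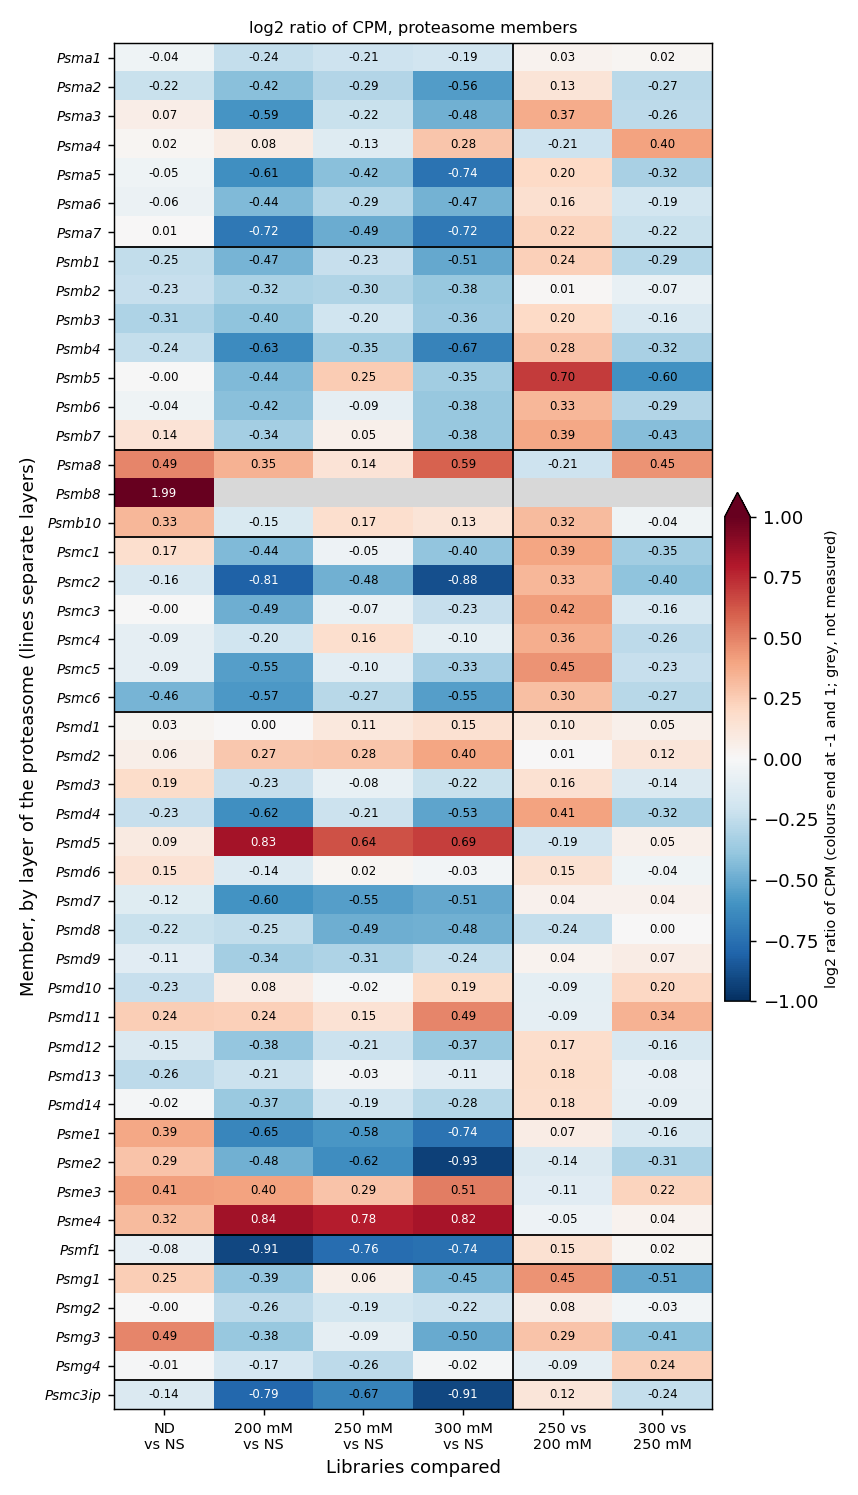
log2 ratio of CPM for each member measured (rows, by layer) in the 4 comparisons with NS and the 2 steps between sorbitol doses (columns). Red is higher, blue is lower and grey is not measured; with sorbitol the alpha, beta and ATPase rows are mostly blue, while Psmd5 and Psme4 are red at all 3 doses.

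The alpha subunits form the outer rings and the gate of the barrel. Psma7 was at 622 CPM in NS, 625 in ND, and 378, 441 and 378 with 200, 250 and 300 mM sorbitol. Its log2 ratios to NS were -0.72 (-0.77 to -0.66), -0.49 (-0.54 to -0.45) and -0.72 (-0.77 to -0.66). The 3 sorbitol libraries therefore all lay below both libraries without sorbitol. Psma5 was at 114, 111, 74.6, 85.6 and 68.5 CPM in the order NS, ND, 200, 250 and 300 mM, with log2 ratios of -0.61 (-0.74 to -0.49), -0.42 (-0.53 to -0.30) and -0.74 (-0.87 to -0.60) for the 3 doses. Psma3 was at 241, 253, 160, 207 and 173 CPM, with -0.59 (-0.68 to -0.51), -0.22 (-0.29 to -0.14) and -0.48 (-0.57 to -0.40). As for Psma7, 250 mM was nearest to NS among the doses. The other alpha levels, in the same order of libraries, were 110, 106, 92.9, 94.9 and 96.0 CPM for Psma1. Psma2 was at 237, 203, 177, 194 and 161 CPM, and Psma6 was at 155, 149, 114, 127 and 112 CPM. Psma4 had another pattern. It was at 304, 309, 322, 279 and 368 CPM, with log2 ratios to NS of 0.08 (0.02 to 0.15), -0.13 (-0.19 to -0.06) and 0.28 (0.21 to 0.34); relative to the bulk of genes these were -0.08, -0.33 and 0.03, so the sign at 200 mM flipped.

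The beta subunits form the inner rings. Psmb4 was at 233 CPM in NS, 198 in ND, and 150, 183 and 146 with rising sorbitol. Its log2 ratios to NS were -0.63 (-0.72 to -0.54), -0.35 (-0.43 to -0.27) and -0.67 (-0.76 to -0.58). Under CPM scaling it was the 1 standard beta subunit that passed 1.5-fold against NS, at 200 and at 300 mM. At 300 mM every standard beta subunit passed it relative to the bulk of genes, from -0.60 (Psmb5) to -0.92 (Psmb4). At 200 mM Psmb1 (-0.63) and Psmb5 (-0.60) then did so as well as Psmb4 (-0.79). Psmb1 was at 263, 222, 190, 225 and 185 CPM, Psmb2 at 224, 191, 180, 181 and 173 CPM, and Psmb3 at 437, 353, 332, 380 and 340 CPM. These 3, like Psmb4, were lower than NS in ND as well.

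The 3 standard catalytic subunits had nearly the NS level in ND and differed between sorbitol doses. Psmb5, which carries the chymotrypsin-like site (chromosome 14, 54614119 to 54618022, minus strand), was at 199 CPM in NS, 199 in ND, and 147, 238 and 156 with 200, 250 and 300 mM sorbitol. Its log2 ratios to NS were -0.00 (-0.09 to 0.08) in ND, and -0.44 (-0.53 to -0.35), 0.25 (0.18 to 0.33) and -0.35 (-0.44 to -0.26) with sorbitol. The 250 mM library was the highest and the libraries at 200 and 300 mM the lowest. Relative to the bulk of genes the ratio of 250 mM to NS was 0.05 (-0.024 to 0.12), which includes 0. Psmb6, with the caspase-like site, was at 405, 394, 304, 382 and 312 CPM, and Psmb7, with the trypsin-like site, was at 136, 150, 108, 141 and 105 CPM. Psmb6 had log2 ratios to NS of -0.04 (-0.10 to 0.02), -0.42 (-0.48 to -0.36), -0.09 (-0.14 to -0.03) and -0.38 (-0.44 to -0.32). For Psmb7 they were 0.14 (0.04 to 0.24), -0.34 (-0.44 to -0.23), 0.05 (-0.04 to 0.14) and -0.38 (-0.49 to -0.27). All 3 were nearest to NS or above it at 250 mM among the doses. Psmb5 took 26.9% of the UMIs of the 3 genes in NS, 26.8% in ND, 26.3% at 200 mM, 31.2% at 250 mM and 27.3% at 300 mM.

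The step between doses was compared directly, in libraries that all had LIF and sorbitol; the 2 steps share the 250 mM library. From 200 to 250 mM 1 member, Psmb5, was higher by 1.5-fold, beside 3.57% of all genes, and 0 were lower, beside 3.42%. Psmb5 was 1.62-fold higher at 250 mM (log2 ratio 0.70, 0.60 to 0.79). From 250 to 300 mM 1 member, again Psmb5, was lower, beside 2.18% of all genes, with a log2 ratio of -0.60 (-0.70 to -0.50), and 0 were higher, beside 3.51%. That is only just past 1.5-fold. Without the 5% of barcodes with most UMIs it was -0.58, just short of it. It was -0.55 after thinning each barcode to 500 UMIs, -0.47 in the deeper barcodes of each library and -0.77 in the shallower ones, all with intervals below 0, and -0.39 (-2.18 to 1.11) in barcodes with at least 1000 genes. Under CPM scaling smaller differences had 1 sign across whole layers. All 7 standard beta subunits were above 0 in the first step (log2 ratio of the sum 0.29, 0.26 to 0.33) and all 7 below 0 in the second (-0.29, -0.32 to -0.25). Psmb2 was only at 0.01 in the first step, which flipped to -0.03 relative to the bulk of genes. All 6 ATPases were above 0 in the first step and below 0 in the second (0.38, 0.33 to 0.43, and -0.27, -0.32 to -0.22). The non-ATPase sum was at 0.08 (0.05 to 0.11) in the first step and 0.01 (-0.02 to 0.04) in the second, which became -0.04 relative to the bulk of genes. Over all members the medians were 0.16 and -0.16, against 0.03 and 0.05 over all genes. The CCT genes had medians of 0.11 and -0.17, near those of the proteasome members.

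**Figure D3:**
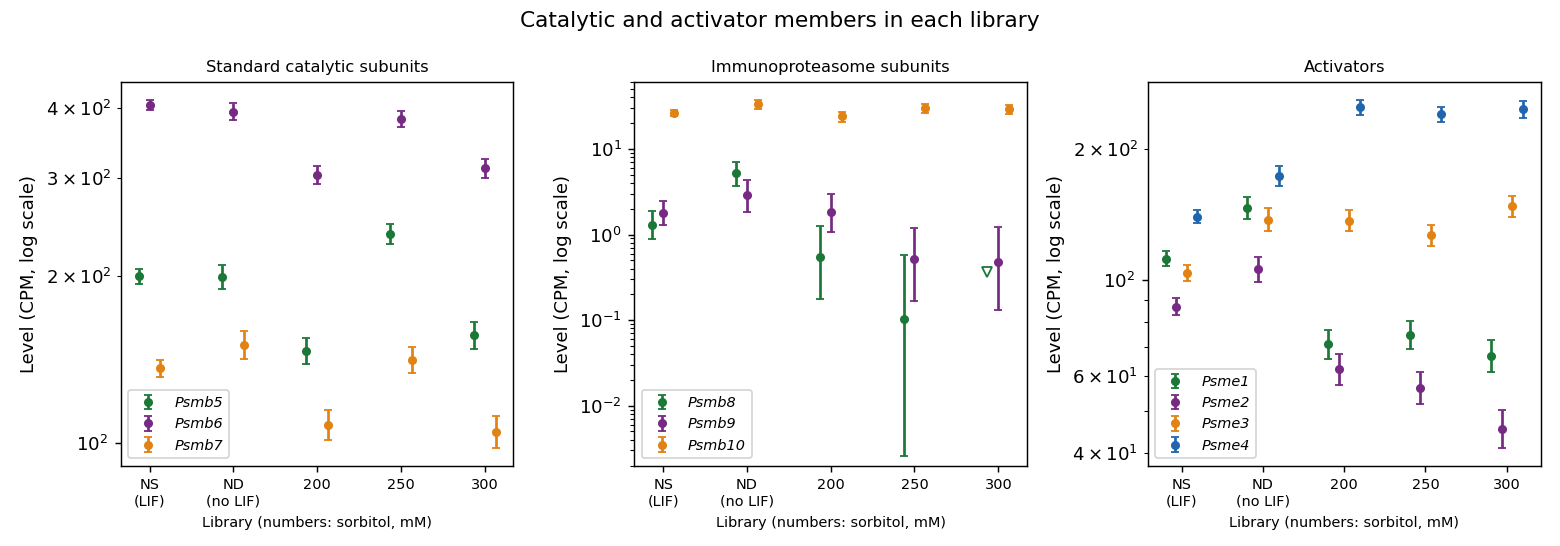
Level in CPM (log axes) of the standard catalytic, immunoproteasome and activator members in the 5 libraries. Points are 1 library each with 95% Poisson intervals, and the open triangle marks the level of 3 UMIs where Psmb8 had 0; Psmb5 is highest at 250 mM, Psmb8 is highest in ND, and with sorbitol Psme4 is above its NS level while Psme1 and Psme2 are below theirs.

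The immunoproteasome subunits were sparsely counted apart from Psmb10. Psmb8 (chromosome 17, 34197721 to 34201454, plus strand) had 29 UMIs in NS, 41 in ND, and 5, 1 and 0 with 200, 250 and 300 mM sorbitol, which are 1.31, 5.19, 0.54, 0.10 and 0 CPM. ND was the highest although NS was sequenced more deeply. The ratio of ND to NS was 3.96-fold (log2 1.99, 1.27 to 2.72). Psmb8 overlaps Gm20496 on the opposite strand, and whether the counting used strand is not stated. Against NS the 200 mM library had a log2 ratio of -1.27 (-3.0 to 0.11), whose interval includes 0. At 300 mM Psmb8 was 3.62-fold lower with its 0 UMIs raised to the floor of 3, a point value and not a lower bound. The counting interval of the level at 300 mM reached up to 0.44 CPM, and that in NS was 0.88 to 1.88 CPM. Of the UMIs of Psmb5 and Psmb8 together, Psmb8 had 0.652% in NS, 2.54% (1.83% to 3.43%, exact binomial) in ND and 0 of 1297 at 300 mM, which allows a share of up to 0.231% (3 counts of the total) or 0.284% (exact binomial upper limit). Such a share is taken within 1 library, so its differences between libraries do not depend on scaling.

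Psmb9 had 40, 23, 17, 5 and 4 UMIs, or 1.81, 2.91, 1.84, 0.51 and 0.48 CPM. Its log2 ratio to NS was 0.69 (-0.12 to 1.46) in ND and 0.03 (-0.88 to 0.88) at 200 mM, so neither could be told from 0 at this depth. At 250 and 300 mM it was -1.82 (-3.52 to -0.48) and -1.90 (-3.85 to -0.44), below NS by more than the counting error. Psmb10 was at 26.6, 33.4, 24.0, 29.9 and 29.1 CPM. Its ratio in ND was 0.33 (0.11 to 0.54), and with sorbitol the intervals all included 0, with -0.15 (-0.38 to 0.08), 0.17 (-0.04 to 0.37) and 0.13 (-0.09 to 0.35). Psma8, an alpha subunit of the testis proteasome, was at 6.32, 8.85, 8.03, 6.96 and 9.53 CPM from 140, 70, 74, 68 and 79 UMIs. It just passed 1.5-fold at 300 mM (log2 ratio 0.59, 0.18 to 1.0), but was at 0.34 relative to the bulk of genes. Psmb11, the thymus subunit, had 2 UMIs in NS, 1 at 200 mM and 0 in the others. Psmb9 overlaps Tap1 on the opposite strand, and whether the counting used strand is not given in the sources used here.

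The ATPase ring unfolds substrates. Psmc2 was at 89.0 CPM in NS, 79.6 in ND, and 50.8, 63.8 and 48.4 at the 3 doses. Under CPM scaling it was the 1 ATPase past 1.5-fold, with log2 ratios to NS of -0.81 (-0.96 to -0.66), -0.48 (-0.61 to -0.35) and -0.88 (-1.04 to -0.72). For Psmc2 all 3 sorbitol libraries lay below NS and ND. Other ATPases passed 1.5-fold relative to the bulk of genes. These were Psmc1 (-0.60 and -0.65) and Psmc6 (-0.73 and -0.80) at 200 and 300 mM, and Psmc3 (-0.65) and Psmc5 (-0.71) at 200 mM. Psmc1 was at 198, 223, 146, 192 and 151 CPM, Psmc3 at 172, 171, 122, 163 and 146 CPM, and Psmc4 at 77.4, 72.9, 67.6, 86.7 and 72.4 CPM. Psmc5 was at 149, 140, 102, 138 and 118 CPM, and Psmc6 at 183, 133, 123, 151 and 125 CPM. Each of these 5 was higher at 250 mM than at 200 or 300 mM. Psmc6 was also low in ND, with a log2 ratio of -0.46 (-0.56 to -0.36), the lowest of all members measured in that comparison.

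The non-ATPase subunits of the base and the lid recognise and remove ubiquitin, and they differed from NS in both directions. Psmd5, an assembly chaperone of the base rather than a stable subunit (chromosome 2, 34849734 to 34874968, minus strand), was at 48.5 CPM in NS, 51.5 in ND, and 86.2, 75.4 and 78.1 with sorbitol. Its log2 ratios to NS were 0.09 (-0.08 to 0.25) in ND, and 0.83 (0.70 to 0.96), 0.64 (0.50 to 0.77) and 0.69 (0.55 to 0.83) with sorbitol. The 3 sorbitol libraries were above both others. Relative to the bulk of genes the 3 values were 0.67, 0.43 and 0.44, so it passed 1.5-fold only at 200 mM. Psmd5 overlaps Cutal on the opposite strand.

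Psmd4, a ubiquitin receptor, was at 266, 227, 173, 230 and 184 CPM, with log2 ratios of -0.62 (-0.70 to -0.54), -0.21 (-0.28 to -0.14) and -0.53 (-0.61 to -0.45) at the 3 doses. Psmd7, a lid subunit that pairs with the deubiquitinase Psmd14, was at 231, 213, 153, 158 and 162 CPM, with -0.60 (-0.68 to -0.51), -0.55 (-0.63 to -0.47) and -0.51 (-0.60 to -0.42). Both passed 1.5-fold at 200 mM only under CPM scaling. Psmd4 was at -0.78, -0.42 and -0.78 relative to the bulk of genes, and Psmd7 at -0.75, -0.76 and -0.76. Psmd14 itself was at 118, 117, 91.6, 103 and 97.2 CPM. The large scaffold subunits Psmd1 and Psmd2 were not lower with sorbitol under CPM scaling: Psmd1 was at 212, 216, 213, 228 and 236 CPM and Psmd2 at 218, 227, 263, 264 and 288 CPM. Relative to the bulk of genes Psmd2 kept values of 0.11, 0.07 and 0.15, while Psmd1 flipped to -0.15, -0.10 and -0.10. Psmd11, a lid subunit known to be abundant in human embryonic stem cells, was at 185, 220, 218, 205 and 261 CPM. Its log2 ratio to NS was 0.24 (0.16 to 0.33) in ND and 0.49 (0.42 to 0.57) at 300 mM, and 0.15 at 250 mM, which flipped to -0.06 relative to the bulk of genes.

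The rest of the non-ATPase group stayed within 1.5-fold of NS in every comparison under CPM scaling. Psmd8 was lower by more than that relative to the bulk of genes at 250 and 300 mM (-0.69 and -0.73), and Psmd12 at 300 mM (-0.62). Psmd3 was at 113, 128, 96.0, 107 and 96.8 CPM, Psmd6 at 138, 153, 126, 140 and 136 CPM, and Psmd8 at 146, 125, 123, 104 and 105 CPM. Psmd9, an assembly chaperone, was at 38.5, 35.7, 30.4, 31.1 and 32.7 CPM, and Psmd10, another one, at 56.3, 47.9, 59.4, 55.7 and 64.2 CPM. Among these, Psmd10 alone was above its NS level at 300 mM (log2 ratio 0.19), which flipped to -0.06 relative to the bulk of genes. Psmd12 was at 241, 217, 184, 208 and 186 CPM, and Psmd13 at 107, 89.4, 92.5, 105 and 99.3 CPM.

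The activators differed from NS in opposite directions. Psme4, a single-chain activator known for its role in male germ cells (chromosome 11, 30771726 to 30880361, plus strand), was at 140 CPM in NS, 174 in ND, and 250, 241 and 247 with 200, 250 and 300 mM sorbitol. Its log2 ratios to NS were 0.32 (0.22 to 0.41) in ND, and 0.84 (0.76 to 0.91), 0.78 (0.71 to 0.86) and 0.82 (0.74 to 0.90) with sorbitol, which is 1.72 to 1.79-fold higher. The 3 sorbitol levels differed little between doses, and all were above ND. Relative to the bulk of genes its ratios were 0.68, 0.58 and 0.57, which falls just short of 1.5-fold at 250 and 300 mM. Psme3, a nuclear activator, was at 104, 138, 137, 127 and 148 CPM, with 0.41 (0.30 to 0.51) in ND and 0.40 (0.30 to 0.50), 0.29 (0.19 to 0.39) and 0.51 (0.41 to 0.61) with sorbitol. It was above NS in all 4 libraries and did not pass 1.5-fold.

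Psme1 and Psme2 encode the chains of the interferon-inducible activator and were above their NS levels in ND, by less than 1.5-fold, and below them with sorbitol. There Psme1 passed 1.5-fold at 200 and 300 mM and Psme2 at 250 and 300 mM under CPM scaling, and both passed it at every dose relative to the bulk of genes. Psme1 (chromosome 14, 55578123 to 55581529, plus strand) was at 112, 146, 71.2, 74.7 and 66.9 CPM, and Psme2 (chromosome 14, 55587441 to 55591113, minus strand) at 86.8, 106, 62.3, 56.4 and 45.5 CPM. The libraries fell in the same order for both between ND, NS and sorbitol. Psme1 had log2 ratios to NS of 0.39 (0.29 to 0.49) in ND, and -0.65 (-0.78 to -0.53), -0.58 (-0.70 to -0.46) and -0.74 (-0.88 to -0.61) with sorbitol. For Psme2 these were 0.29 (0.17 to 0.40), -0.48 (-0.62 to -0.34), -0.62 (-0.76 to -0.48) and -0.93 (-1.10 to -0.77). Together Psme1 and Psme2 took 44.9% of the activator UMIs in NS and 44.7% in ND, but 25.7%, 26.3% and 22.1% with sorbitol, while Psme4 took 31.6%, 30.9%, 48.0%, 48.3% and 48.7%. These shares are taken within a library and do not depend on scaling. The copy Psme2b had 16, 13, 5, 7 and 6 UMIs, and reads of Psme2 and Psme2b may not be fully separable. Psme1 overlaps Emc9 on the opposite strand.

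Psmf1, which encodes a protein that inhibits the core in the test tube, was at 34.5 CPM in NS, 32.6 in ND, and 18.3, 20.4 and 20.6 with sorbitol. Its log2 ratios to NS were -0.91 (-1.16 to -0.67), -0.76 (-0.99 to -0.53) and -0.74 (-0.99 to -0.50), so it was lower by more than 1.5-fold at all 3 doses, and ND differed from NS by less than the counting error (-0.08, -0.29 to 0.12). The chaperones of core assembly stayed within 1.5-fold under CPM scaling. At 300 mM Psmg1 (-0.70) and Psmg3 (-0.75) were lower by more than that relative to the bulk of genes. Psmg1 was at 38.5, 45.7, 29.4, 40.1 and 28.2 CPM and Psmg3 at 17.9, 25.2, 13.8, 16.8 and 12.7 CPM, both highest in ND. Psmg2 was at 79.5, 79.3, 66.3, 69.8 and 68.4 CPM, and Psmg4 was at 32.4, 32.1, 28.7, 27.0 and 32.0 CPM. Psmc3ip, which is no subunit, was at 41.2, 37.3, 23.9, 25.9 and 21.9 CPM, with -0.79 (-1.01 to -0.57), -0.67 (-0.87 to -0.47) and -0.91 (-1.14 to -0.68) at the 3 doses.

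Ratios to NS were related to transcript length. Over all genes measured, Spearman's correlation across genes between the length of the longest coding transcript (GENCODE M21) and the log2 ratio to NS was 0.20 in ND and 0.32, 0.31 and 0.34 at 200, 250 and 300 mM; genes share libraries and are not independent. Over the members it was -0.00 (n = 47), 0.24, 0.23 and 0.27 (n = 46). The longest transcripts of members ranged from 555 to 6491 nt, with a median of 1490.5. Psme4 at 6491 nt and Psmd5 at 4397 nt are the longest, and Psmf1 at 3809 nt was lower. At 300 mM all genes from 1500 to under 2000 nt had a median of 0.08, and the 11 members of that class -0.40. In the class of 3000 nt or more, which holds Psme4, Psmd5, Psmf1 and Psmd1, the 4 members had medians of 0.42, 0.37 and 0.42 at 200, 250 and 300 mM, near those of all genes of that length (0.35, 0.36 and 0.46). Of these genes 41.7% were higher by 1.5-fold at 300 mM. Among genes under 1000 nt the medians at 300 mM were -0.30 overall and -0.38 over 7 members. Under 2000 nt, which takes in 34 members, all genes had medians of -0.14, -0.06 and -0.12 at the 3 doses, and the members -0.39, -0.20 and -0.38. Of all genes of that length 20.7%, 16.8% and 21.9% were lower by 1.5-fold, beside 8, 2 and 7 of the 34 members. Higher were 12.5%, 13.7% and 15.2%, beside 0, 0 and 1 of the members. The counts of lower members were thus near the share for that length at 200 and 300 mM, and under it at 250 mM. The member medians were below those of all genes of that length at every dose. From 2000 to under 3000 nt the 8 members had medians of -0.29, -0.15 and -0.23, against 0.18, 0.20 and 0.26 over all genes. Of these members 1, 0 and 0 were lower, beside 10.8%, 7.94% and 9.18%, and 0 were higher at any dose, beside 24.4%, 24.6% and 31.2%. The part of length in the proteasome values was not tested further.

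**Figure D4:**
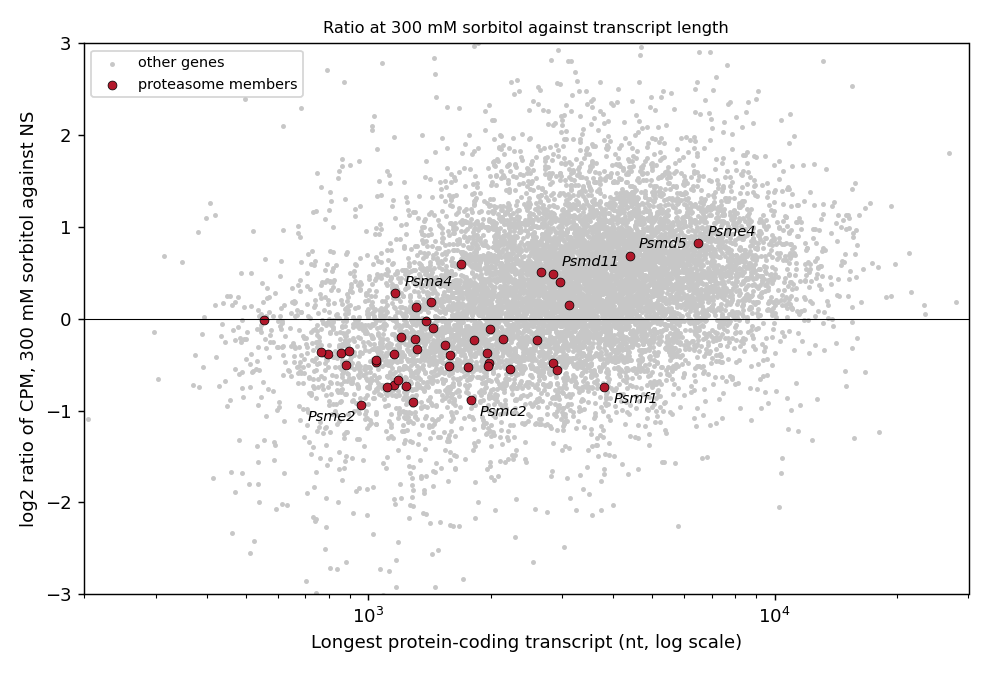
log2 ratio of CPM at 300 mM sorbitol against NS (vertical axis) by length of the longest coding transcript in nt (horizontal log axis), for 10379 genes (grey, 38 outside the axes) and 46 members (red). Longer genes lie higher on average, most members under 2000 nt lie below 0, and Psme4 and Psmd5 are the highest labelled members at the long end.

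Other genes of the pathway were taken from fixed lists. Of 17 genes listed for assembly, docking and transcription of the proteasome, 15 were found and 14 measured, and 0 were higher or lower in ND. With sorbitol 2 were higher at each dose, beside 26.8%, 26.5% and 32.8% of all genes, and 4, 2 and 3 were lower, beside 11.0%, 8.69% and 10.6%. Ddi2, the protease that releases the proteasome transcription factor Nfe2l1, was at 31.5 CPM in NS, 39.2 in ND, and 62.4, 56.6 and 79.4 with sorbitol. Ube3c, a ubiquitin ligase at the proteasome, was at 38.8, 44.1, 61.0, 58.9 and 73.3 CPM. Lower were Pomp, the maturation factor of the core (291, 269, 176, 195 and 165 CPM), Nfe2l2, the antioxidant transcription factor (123, 95.4, 60.3, 69.2 and 75.9 CPM) and the ubiquitin receptor Adrm1 (114, 83.6, 67.1, 76.2 and 76.1 CPM). Pomp was below its NS level in all 3 sorbitol libraries, though by less than 1.5-fold at 250 mM. The alpha and beta sums were also below NS at every dose, by less than 1.5-fold under CPM scaling. Nfe2l1, named after its values were seen, was at 353, 364, 392, 483 and 332 CPM and was highest at 250 mM, as was Psmb5. It stayed within 1.5-fold of NS in every library, and any link between Nfe2l1 and Psmb5 was not tested.

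Of 24 genes for ubiquitin supply and delivery, 1 was higher and 1 lower in ND, beside 10.0% and 7.07% of all genes. With sorbitol 5, 9 and 9 were higher at 200, 250 and 300 mM, beside 26.8%, 26.5% and 32.8%, and 2, 2 and 1 lower, beside 11.0%, 8.69% and 10.6%. The counts of higher genes are near the share over all genes. The deubiquitinase Usp7 was at 138, 200, 235, 268 and 311 CPM, and the shuttle factor Rad23b at 84.8, 87.0, 135, 137 and 158 CPM. The autophagy receptor Sqstm1 was at 367, 378, 180, 242 and 197 CPM. Of 10 genes that Nfe2l2 is known to activate, 0 were higher at any dose, beside 26.8%, 26.5% and 32.8% of all genes, and 4, 6 and 3 were lower, beside 11.0%, 8.69% and 10.6%. In ND 1 was higher, Slc7a11, beside 10.0%. Gclm was at 107, 152, 45.8, 45.6 and 52.5 CPM, and Txnrd1 at 229, 217, 108, 134 and 112 CPM.

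For antigen presentation and interferon signalling 13 genes were found and 9 measured. Of these 2 were higher and 0 lower in ND, beside 10.0% and 7.07% of all genes. With sorbitol 4, 4 and 5 were higher, beside 26.8%, 26.5% and 32.8%, and 1, 3 and 3 lower, beside 11.0%, 8.69% and 10.6%. Irf1, a transcription factor that activates Psmb8, Psmb9, Psme1 and Psme2, was at 31.1 CPM in NS, 58.4 in ND, and 12.6, 11.3 and 12.1 with sorbitol. Its libraries lay in the order of those for Psme1, ND above NS and NS above sorbitol. Stat2 was at 13.9, 10.4, 35.4, 26.3 and 27.0 CPM and the class I gene H2-K1 at 46.4, 39.1, 85.9, 57.6 and 81.5 CPM, with the opposite order. The list therefore did not have 1 direction.

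Single barcodes were set at 1 depth by thinning each to 500 UMIs. Mean proteasome UMIs per barcode were then 3.70 in NS, 3.60 in ND, and 3.0, 3.35 and 3.08 with 200, 250 and 300 mM sorbitol, the same order as the summed levels. The variance over barcodes, relative to the binomial variance of the library's own profile, was 1.06, 1.03, 1.05, 1.05 and 1.03. A value of 1 is what sampling from 1 profile gives. Barcodes are not replicates of a condition.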

How the data were processed

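The deposited files are raw UMI count matrices, genes by barcodes, and per the file headers the authors produced them in Cell Ranger 6.0.1. The submitters' processing notes also name the mm10 build, R 4.1.2 and Seurat 4.1.1. The labels' extraction text names Trizol and a Lexogen kit although the matrices are of the droplet type. Which of these steps apply, and whether strand was used, is not stated in what was used here.

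Barcodes needed 500 genes or more and a mitochondrial share of 20% or less, which kept 10000 of NS, 9240 of ND, and 9985, 10000 and 9849 of the sorbitol libraries. No doublet caller was run; the 5% of barcodes with most UMIs were left out as an alternative. UMI counts were summed per library and scaled by the library total to CPM. Ratios have exact conditional binomial 95% intervals, levels exact Poisson ones and shares exact binomial ones, which reflect counting error alone. For ratios, counts below 3 UMIs were raised to 3. With 1 library per condition no test was run. Thresholds of 1.25-fold and 2-fold, another scaling, other barcode filters and other CPM minimums were alternatives. The procedure was tested on simulated data. Python 3.11.15, numpy 2.4.6, scipy 1.17.1, pandas 2.3.3 and matplotlib 3.10.9 were used. Gene positions and lengths are those of GENCODE M21 on GRCm38 and promoters from RefSeq (GRCm38.p6). Of the members 18 overlap another gene, 15 of them on the opposite strand, and without a stated use of strand these are uncertain. Every member reaching 5 CPM is named with its levels, and members past 1.5-fold, catalytic, immunoproteasome and activator members with their intervals. From each other list at most 5 genes past 1.5-fold were eligible, by the size of the ratio at 300 mM. Members and lists were chosen with earlier results of these data known. The TTCNNNGAA pattern and the length classes were chosen after seeing the data.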

Additional observations from a re-analysis of the deposited data

How the results depend on the processing

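No paired analysis was possible because each condition is 1 library and the labels carry no replicate numbers. Counts below are members at least 1.5-fold higher or lower and medians are member log2 ratios. Relative to the bulk of genes (median-of-ratios scaling) the median was -0.10 in ND, and -0.54, -0.39 and -0.62 at 200, 250 and 300 mM against NS, with 18, 9 and 25 lower and 0 higher at 250 and at 300 mM. With a total without mitochondrial and ribosomal protein genes, 1 was higher and 5 lower at 250 mM (median -0.27), and 15 were lower at 300 mM. Restricting to barcodes with at least 1000 genes left 8 in ND, and 22, 47 and 19 with sorbitol. There 10 were higher in ND (median 0.35), 6 at 200 mM (median -0.13), 7 at 250 mM with 10 lower (median -0.27) and 7 at 300 mM. From 200 to 250 mM 4 were higher and 4 lower (median -0.076), which reverses the sign of that median, and from 250 to 300 mM 6 were higher and 10 lower. Psmb4 and Psma3 at 200 mM (0.50 and 0.10) and Psmf1 at 300 mM (1.32) reversed in that setting, with intervals that include 0; too few barcodes remained for these values. After thinning to 500 UMIs 0 were higher in ND, because Psmb8 no longer reached 5 CPM (its log2 ratio was 1.44, 0.19 to 2.83), and 5 lower at 200 mM. In the shallower barcodes of each library, split at the median UMIs, 2 were higher in ND and 5 lower at 250 mM. Without a minimum CPM 3 were higher in ND, 5 lower at 250 mM and 2 lower from 200 to 250 mM; with 20 CPM 0 were higher in ND. Without the 5% of barcodes with most UMIs 0 were lower from 250 to 300 mM. At the lower fold threshold 6 were higher and 1 lower in ND, 4 and 27 at 200 mM, 10 lower at 250 mM, 6 and 26 at 300 mM, 11 higher from 200 to 250 mM, and 3 higher and 7 lower from 250 to 300 mM. At 2-fold 0 were higher or lower at each sorbitol dose, 0 higher from 200 to 250 mM and 0 lower from 250 to 300 mM. Leaving out Psmc3ip, chosen after seeing the data, moved no count by over 1.5 times. The summed level of all members was 8143, 7497, 5907, 6413 and 5732 CPM in NS, ND, 200, 250 and 300 mM under median-of-ratios scaling, and 10935, 10369, 8667, 9357 and 8532 CPM without mitochondrial and ribosomal protein genes. In barcodes with at least 1000 genes it was 6500, 6347, 6390 and 5553 CPM in ND and the 3 sorbitol libraries. In the deeper and the shallower barcodes of that split it was 7351 and 7441 CPM in NS and 7149 and 7299 CPM in ND. The cause was not tested. Depth limits Psmb8, Psmb9, Psmb11 and Psme2b, with at most 41 UMIs a library.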
